A study of Mus musculus with 12 samples.

Results

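The alcohol and aldehyde dehydrogenase genes described here are Adh1, Adh4, Adh5, Aldh1a1, Aldh1a7, Aldh1b1, Aldh1l1, Aldh2, Aldh3a2 and Aldh8a1. They were taken by gene name from the count tables of a mouse liver RNA-seq study, 10 genes of 25164 listed, and all 10 passed the filter on low counts. The study compared 3 groups of mice. Control animals were kept for 14 weeks on normal diet and HFD animals for the same time on high-fat food. HFD + fenofibrate animals also had the high-fat food throughout, alone for 10 weeks and then with fenofibrate by gavage for 4. Fenofibrate is an agonist of the nuclear receptor PPARα. The design assigned 10 mice to each group, and 4 liver libraries per group were analysed, so the tissue is whole liver and fewer cells of a type cannot be told apart from less RNA per cell. The labels state no strain, sex, age, fenofibrate dose or diet composition, and no vehicle gavage of the other groups. Nothing in the labels says how libraries shared a cage, a preparation or a sequencing run, so a p-value here reflects only how these libraries spread, which may be technical.

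Alcohol dehydrogenases oxidise alcohols to aldehydes with NAD+, and aldehyde dehydrogenases oxidise the aldehydes on to acids. In liver this clears ethanol through acetaldehyde to acetate, turns retinol into retinal and retinoic acid, and removes formaldehyde, fatty aldehydes and aldehydes made by lipid peroxidation. Hepatocytes carry most of these enzymes, and several differ in level between the portal and the central part of the liver lobule.

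The 12 libraries held between 15797016 and 18514481 counts. Together the 10 genes took 0.571% ± 0.014 of the counts in Control (SD, n = 4), 0.666% ± 0.039 in HFD and 0.686% ± 0.043 in HFD + fenofibrate. These are shares of unscaled counts, and the scaled sum given further below puts HFD above HFD + fenofibrate. The hepatocyte markers were abundant throughout: 12 of 12 were listed, none was at 0 in all libraries, and their sum ran from 123100 to 151600 CPM, the counts of a gene scaled to a common library total. Transcripts of other tissues were high in a pair of HFD + fenofibrate libraries. Markers of striated muscle, 7 of 8 of them listed and Tnnc2 at 0 throughout, summed to 199 CPM in HFD + fenofibrate replicate 1 and to 161 CPM in replicate 3. In the other 10 libraries that sum did not pass 0.906 CPM. Markers of pancreatic acinar cells, 13 of 13 listed, summed to 2222 CPM in HFD + fenofibrate replicate 1 and to 9.92 to 14.1 CPM in the other 3 libraries of that group. They summed to 6.41 to 10.1 CPM in Control and to 18.6 to 31.8 CPM in HFD, without overlap (exact permutation p = 0.0286). The muscle sum was 0.223 to 0.536 CPM in Control and 0.539 to 0.906 CPM in HFD (exact permutation p = 0.0286). It was 0.475 and 0.540 CPM in HFD + fenofibrate replicates 2 and 4. Adjusted over all 39 permutation tests, the p-values of the acinar and the muscle sum on the diet were 0.159. The muscle sums of Control and HFD were near the floor, and their ranges parted only between 0.536 and 0.539 CPM. The part of these transcripts in the results on the diet was not tested. Calls that rest on the HFD + fenofibrate group are given below with and without replicates 1 and 3; for summed counts, ratios, marker sums and gene lists this alternative was chosen after seeing the data.

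**Figure D1:**
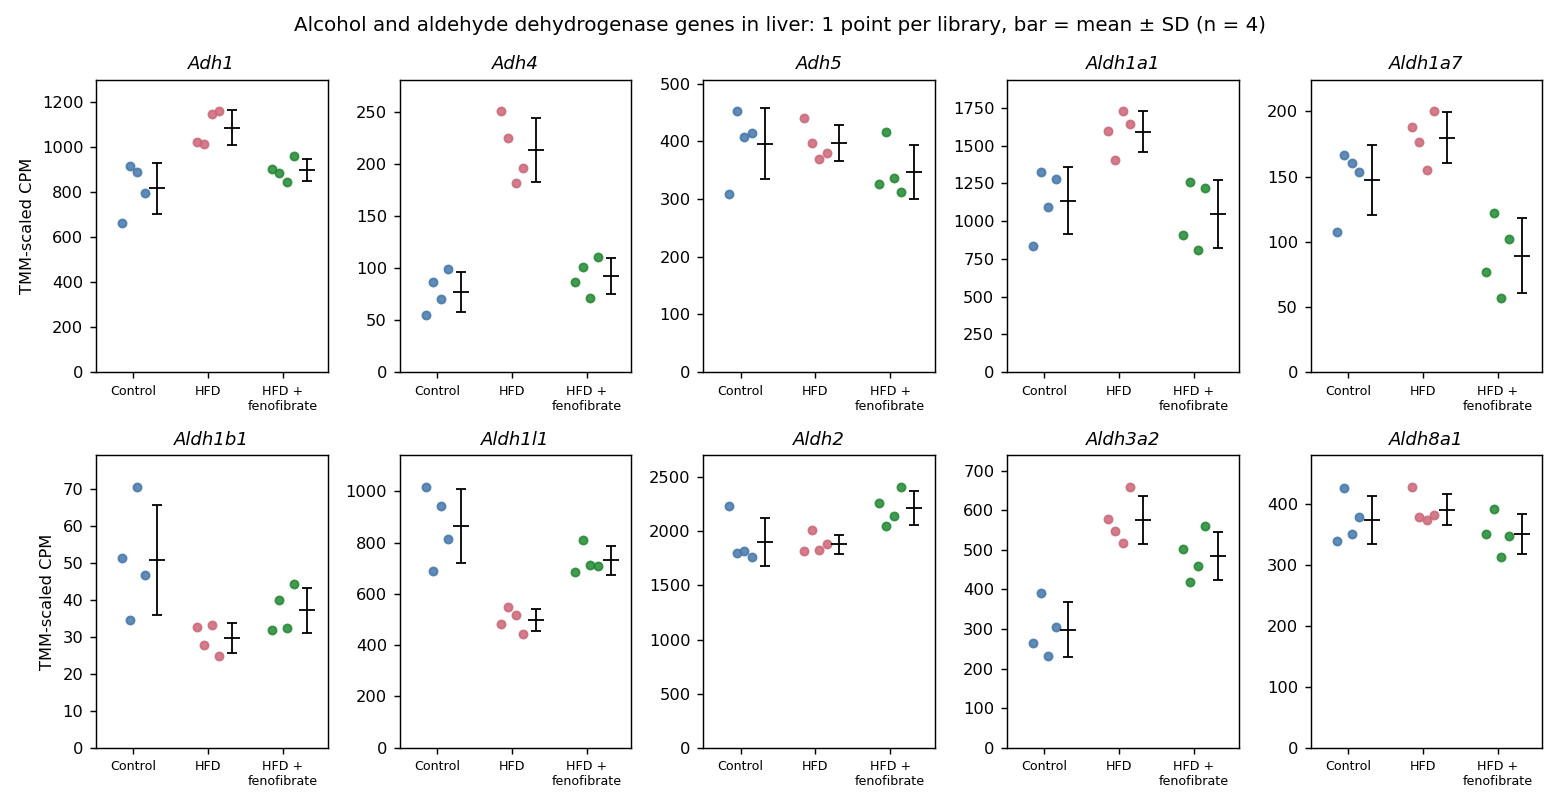
Level of each of the 10 genes in the 12 liver libraries, in CPM scaled by TMM (trimmed mean of M-values), 1 point per library, with the group mean ± SD beside the points (n = 4); each panel has its own axis, which starts at 0. The 4 HFD points of Adh4 lie between 182 and 251 CPM, above the 8 points of the other groups, and the 4 HFD points of Aldh1l1 lie between 444 and 549 CPM, below the 8 points of the other groups.

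On the high-fat diet, 3 of the 10 genes rose and 2 fell against Control at an adjusted p under 0.05 (edgeR quasi-likelihood test, adjusted over 13477 genes). Adh4, Aldh3a2 and Adh1 rose by log2 1.47 ± 0.18 (SE), 0.95 ± 0.15 and 0.41 ± 0.11, and Aldh1l1 and Aldh1b1 fell by 0.80 ± 0.12 and 0.78 ± 0.18 on the log2 scale. Over all tested genes 12.8% passed in this comparison, 6.13% upward and 6.64% downward. The median log2 fold change of the 10 genes was 0.18, beside −0.02 over all tested genes. The HFD and Control libraries did not overlap for 4 genes that were higher in HFD, namely Adh1, Adh4, Aldh1a1 and Aldh3a2, and for 2 that were lower, Aldh1b1 and Aldh1l1. The same held for 17.6% of all tested genes, 8.48% on the higher and 9.16% on the lower side.

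With fenofibrate added to the diet, 3 of the 10 genes fell and 1 rose against HFD. Adh4, Aldh1a7 and Aldh1a1 fell by 1.21 ± 0.18, 1.01 ± 0.20 and 0.60 ± 0.16 on the log2 scale, and Aldh1l1 rose by log2 0.55 ± 0.12. Over all tested genes 13.5% passed, 6.89% upward and 6.59% downward, and the median was 0.01 beside −0.22 for the 10 genes. The libraries did not overlap for Aldh1l1 and Aldh2, which were higher, and for Adh1, Adh4, Aldh1a1 and Aldh1a7, which were lower; over all tested genes the share was 20.7%, 10.4% on the higher and 10.3% on the lower side. Without HFD + fenofibrate replicates 1 and 3, 124 genes passed in this comparison in place of 1816, and of the 10 genes only Adh4 did. That alternative compares 2 libraries with 4, and no other pair of libraries was left out. Whether calls were lost through fewer libraries or through the content of those libraries was not tested, here and below.

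Set against Control, the HFD + fenofibrate livers differed in 2 of the 10 genes: Aldh3a2 rose by log2 0.70 ± 0.15 and Aldh1a7 fell by 0.72 ± 0.20 on the log2 scale. Over all tested genes 9.17% passed, 4.86% upward and 4.31% downward, and the median was −0.01 beside −0.10 for the 10 genes. Aldh3a2 was also the 1 gene whose libraries did not overlap, with 13.1% of all tested genes in that position, 6.89% on the higher and 6.26% on the lower side. These 3 comparisons share libraries pairwise, so their values are set side by side and not as separate evidence.

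**Figure D2:**
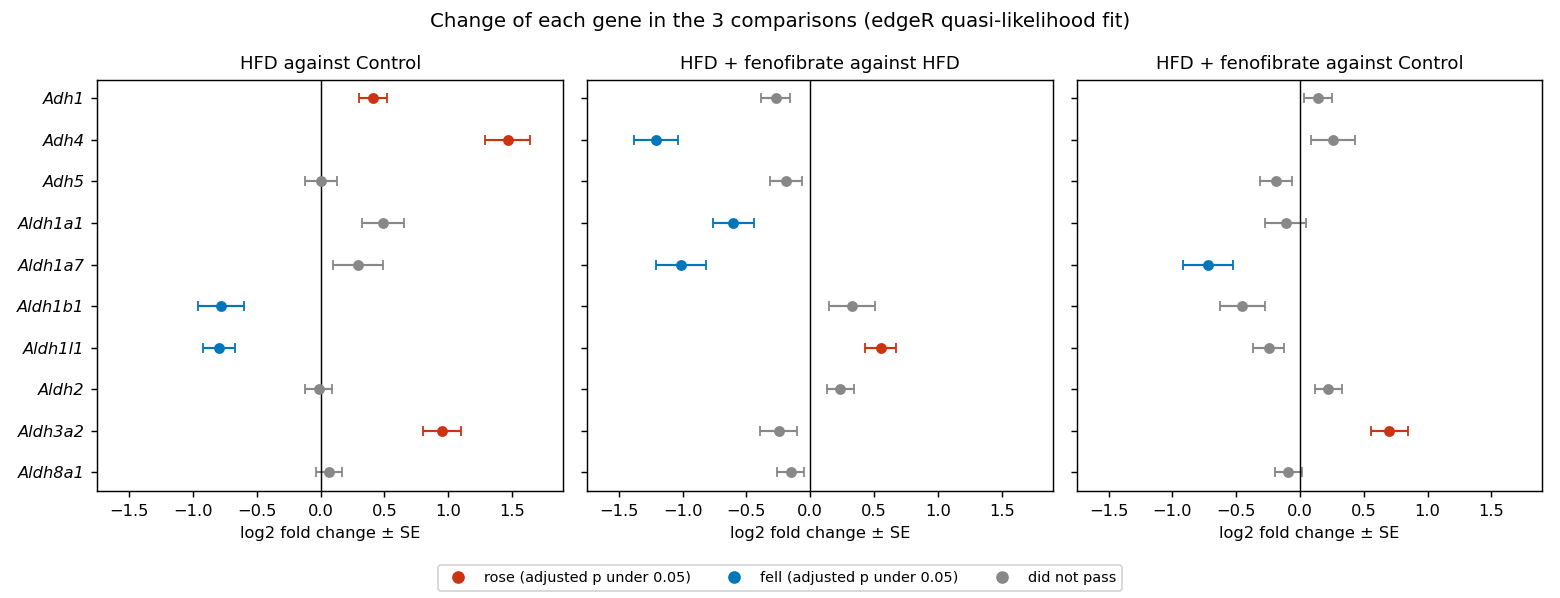
Log2 fold change ± SE of the 10 genes in HFD against Control (left), HFD + fenofibrate against HFD (middle) and HFD + fenofibrate against Control (right), from 1 edgeR fit over all 12 libraries; red rose, blue fell and grey did not pass an adjusted p of 0.05. Adh4 stands at 1.47 on the left and at −1.21 in the middle, and Aldh3a2 at 0.95 on the left and 0.70 on the right.

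Of the alcohol dehydrogenases, Adh4 showed the largest change among the 10 genes in both comparisons with HFD. Adh4 is the class II enzyme, which oxidises retinol and longer alcohols and takes part in ethanol oxidation when ethanol is high. It lies at chr3:138415466-138430892 on the plus strand (GRCm38), between Adh1 at chr3:138260991-138290698 and Adh5 at chr3:138443093-138455499, all 3 on the plus strand. Its level was 54.4, 86.2, 69.8 and 98.5 CPM in Control replicates 1 to 4, 251, 225, 182 and 196 CPM in HFD, and 86.8, 101, 70.8 and 111 CPM in HFD + fenofibrate. Every HFD library lay above all 8 others, and the HFD + fenofibrate libraries overlapped those of Control. The level in HFD was 2.76 times that in Control (adjusted p = 8.1e-05) and with fenofibrate 0.433 times that in HFD (adjusted p = 0.00112). HFD + fenofibrate against Control gave log2 0.26 ± 0.17 (adjusted p = 0.387). The Adh4 calls in the first 2 comparisons held in all 20 alternative analyses, with log2 fold changes of 1.34 to 1.60 and of −1.30 to −1.01.

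The stretch before the Adh4 start in RefSeq (GRCm38.p6, chr3:138415247-138415494, plus strand) is shown because it holds AGGTCA, the core motif that many nuclear receptors recognise, in 2 places, in capitals. The last 2 bases of the 250-base window lie in an exon of the principal transcript and were left out. The last 29 printed bases, the second copy among them, lie in an exon of another annotated transcript.
Adh4: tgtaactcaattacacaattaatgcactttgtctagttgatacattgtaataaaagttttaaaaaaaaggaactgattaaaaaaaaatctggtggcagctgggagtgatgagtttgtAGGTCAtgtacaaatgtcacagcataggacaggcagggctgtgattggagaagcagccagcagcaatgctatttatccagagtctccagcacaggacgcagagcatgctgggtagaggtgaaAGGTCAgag
The first copy begins 133 bases before the RefSeq start and the second 11 bases before it. AGGTCA on either strand occurs in 14.0% of the 32851 promoter windows of 250 bases in the table. RefSeq windows were found for 9 of the 10 genes, 11 windows in all. The window of Aldh1l1, inside the annotated span of that gene, also holds AGGTCA, on the reverse strand, 178 bases before the RefSeq start. PPARα binds as a dimer to a direct repeat of this motif with 1 base of any kind between the copies. Searched as exact copies of AGGTCA on both strands, that repeat is in 0.0335% of all windows and in none of these 11. The repeat with 4 bases between the copies is in 0.0152% of all windows and also in none of the 11. A match or its absence is a property of these letters alone.

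Adh1, the class I enzyme that carries most of the liver's ethanol oxidation at low ethanol and also oxidises retinol, had smaller differences at a far higher level. It was at 663, 914, 889 and 798 CPM in Control, at 1024, 1013, 1145 and 1159.5 CPM in HFD, and at 903, 885, 843 and 962 CPM in HFD + fenofibrate. The HFD libraries lay above all 8 others, and the HFD + fenofibrate libraries overlapped those of Control. Against Control, Adh1 rose 1.33-fold on the diet (adjusted p = 0.0241). That call was lost without Control replicate 1 (adjusted p = 0.052), Control replicate 4 (0.0565), HFD replicate 3 (0.0554) or HFD replicate 4 (0.0724). With fenofibrate the level was 0.828 times that of HFD, which did not pass (adjusted p = 0.107), although the 4 libraries of each group did not overlap. A non-coding gene, Gm16559, overlaps exons of Adh1 on the other strand by 136 bases and had 550 counts over the 12 libraries. Aldh1l1 is overlapped in exons by Gm15756 on the other strand (499 bases, 86 counts) and by Gm45901 on its own strand (105 bases, 6 counts), and Aldh2 by Gm42879 on the other strand (130 bases, 67 counts). The sources used here do not give the strand setting of the counting.

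Adh5, the class III enzyme that oxidises the glutathione adduct of formaldehyde and reduces S-nitrosoglutathione, ranged from 308 to 452 CPM in Control, from 368 to 440.3 CPM in HFD and from 312 to 416 CPM in HFD + fenofibrate. The 3 groups overlapped. The diet difference was log2 0.00 ± 0.13 (adjusted p = 0.992) and the fenofibrate difference against HFD −0.19 ± 0.13 (adjusted p = 0.320). Among Adh1, Adh4 and Adh5, it was thus Adh5 alone whose groups overlapped in all comparisons.

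Aldh1a1 and Aldh1a7 are neighbours on chromosome 19 and close copies of each other. Aldh1a1 (chr19:20492715-20643462, plus strand) encodes the cytosolic retinal dehydrogenase that makes retinoic acid. Aldh1a7 (chr19:20692953-20727562, minus strand) is a rodent gene derived from the same ancestor. Their coding sequences are 91.9% identical over aligned bases, against 71.7% for the next closest pair among the 10, Aldh1b1 and Aldh2. Of all runs of 50 bases in the Aldh1a7 transcript, 7.49% also occur in Aldh1a1, but only 1 run of 100 bases does, so short reads could in part be exchanged between them while longer ones mostly could not.

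The stretches before both starts are shown because they share an unbroken run of 65 identical bases, in capitals, that begins 94 bases before the RefSeq start in each gene. The Aldh1a1 stretch is chr19:20601718-20601960 on the plus strand and belongs to the second of its 2 RefSeq windows; the Aldh1a7 stretch is chr19:20727563-20727806 on the minus strand (both GRCm38.p6). The last 7 and 6 bases of the windows lie in exons and were left out. The Aldh1a1 stretch lies inside the annotated span of that gene.
Aldh1a1: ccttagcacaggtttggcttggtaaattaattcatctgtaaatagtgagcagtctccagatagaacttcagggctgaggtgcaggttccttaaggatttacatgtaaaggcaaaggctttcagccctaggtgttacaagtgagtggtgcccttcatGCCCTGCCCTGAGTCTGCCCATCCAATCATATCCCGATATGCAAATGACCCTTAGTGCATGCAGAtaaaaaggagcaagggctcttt
Aldh1a7: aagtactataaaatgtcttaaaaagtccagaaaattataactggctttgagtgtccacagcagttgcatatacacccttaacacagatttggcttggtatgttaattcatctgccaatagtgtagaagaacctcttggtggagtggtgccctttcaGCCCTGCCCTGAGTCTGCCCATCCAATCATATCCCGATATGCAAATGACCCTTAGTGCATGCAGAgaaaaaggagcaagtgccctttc
Over the aligned bases of the full windows the genes were 75.9% identical. The shared run holds ATGCAAAT, 56 bases before each start, a motif chosen after the sequences had been seen. It is in 1.6% of all windows on either strand, and among the 10 genes Aldh8a1 also holds it, 58 bases before its start.

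Aldh1a1 was at 837, 1324, 1094 and 1281 CPM in Control, at 1595, 1404, 1728 and 1644 CPM in HFD, and at 904, 1261, 808 and 1220.5 CPM in HFD + fenofibrate. The HFD libraries lay above all others, and within HFD + fenofibrate the libraries with muscle transcripts, replicates 1 and 3, were the lower pair. The diet difference, log2 0.49 ± 0.16, missed the threshold (adjusted p = 0.0611) but passed in 7 of 21 alternatives, among them DESeq2 (adjusted p = 0.0227) and a fit to the 8 libraries compared (0.0385). The fall with fenofibrate, to 0.658 of the HFD level, passed (adjusted p = 0.0262). It did not pass without HFD + fenofibrate replicates 1 and 3 (log2 −0.36, adjusted p = 0.325), nor without replicate 1 (0.0779) or replicate 3 (0.0901) of that group alone, or without HFD replicate 1 (0.0591), replicate 3 (0.053) or replicate 4 (0.0654). Against Control the value was −0.11 ± 0.16 (adjusted p = 0.714).

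Aldh1a7 was at 108, 167, 160.2 and 154 CPM in Control, at 188, 177, 155 and 200.3 CPM in HFD, and at 76.6, 122, 56.5 and 102 CPM in HFD + fenofibrate. All 4 HFD + fenofibrate libraries were below every HFD library, and replicates 1 and 3 were again the lowest. The level was 0.497 times that of HFD (adjusted p = 0.00524) and 0.608 times that of Control (adjusted p = 0.0321). Without replicates 1 and 3 the differences were −0.68 (adjusted p = 0.0903) and −0.38 (adjusted p = 0.317) on the log2 scale. The call against Control was also lost with the 8 libraries compared alone (adjusted p = 0.0601) and without Control replicate 2 (0.0892), replicate 3 (0.0688) or replicate 4 (0.0761). It was lost too without HFD + fenofibrate replicate 1 (0.0987) or replicate 3 (0.0848). The diet difference was log2 0.29 ± 0.19 (adjusted p = 0.368).

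Because the copies could exchange reads, their counts were also summed and compared as a ratio. The sum did not pass for the diet (log2 0.47, adjusted p = 0.0735), fell with fenofibrate against HFD (log2 −0.64, adjusted p = 0.0209), and differed from Control by −0.17 (adjusted p = 0.553). Without HFD + fenofibrate replicates 1 and 3 the sum no longer passed against HFD (log2 −0.39, adjusted p = 0.278), and against Control it was 0.09 (adjusted p = 0.844). Aldh1a7 counts were 12.9, 12.6, 14.7 and 11.998% of Aldh1a1 counts in Control, 11.8, 12.6, 8.96 and 12.2% in HFD, and 8.47, 9.69, 6.99 and 8.39% in HFD + fenofibrate. The HFD + fenofibrate libraries were below every Control library and overlapped HFD through HFD replicate 3. In means the ratio was 13.0% ± 1.14 in Control, 11.4% ± 1.65 in HFD and 8.39% ± 1.10 in HFD + fenofibrate (SD, n = 4). By exact two-sided permutation tests, p was 0.114 for the diet, 0.0571 for fenofibrate against HFD and 0.0286 for HFD + fenofibrate against Control, the smallest p that 4 against 4 allows. Adjusted over 39 such tests (this ratio and 12 marker sums, in 3 comparisons each) they were 0.279, 0.223 and 0.159; since the smallest p became 0.159, the adjusted values could not separate groups here. The difference from Control, −4.64 percentage points, stayed between −5.08 and −4.10 with any 1 library left out. Without replicates 1 and 3 of that group it was −3.99 (exact permutation p = 0.0667, the smallest that 2 against 4 allows), and the difference from HFD was −2.34 (exact permutation p = 0.267) in place of −2.99.

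**Figure D3:**
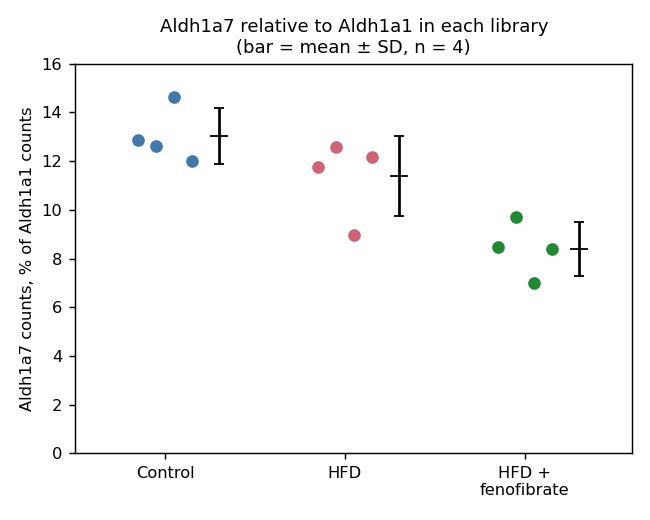
Aldh1a7 counts as a percentage of Aldh1a1 counts in each library, 1 point per library, with the group mean ± SD (n = 4); the axis starts at 0. The 4 HFD + fenofibrate libraries lie between 6.99 and 9.69%, below the 4 Control libraries at 11.998 to 14.7%.

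The mitochondrial enzymes that take up acetaldehyde differed from each other. Aldh2 (chr5:121566027-121593824, minus strand), the main acetaldehyde dehydrogenase of liver, was at 2237, 1798, 1817 and 1760.2 CPM in Control, 1816, 2009, 1825 and 1880.1 CPM in HFD, and 2266, 2047, 2143 and 2413 CPM in HFD + fenofibrate. Every HFD + fenofibrate library was above every HFD library, but the difference, log2 0.24 ± 0.11, did not pass (adjusted p = 0.139). The diet difference was −0.02 ± 0.11 (adjusted p = 0.947). Control replicate 1 stood apart from the other 3 Control libraries, and without it HFD + fenofibrate against Control passed (log2 0.32, adjusted p = 0.0458), where the value with all libraries was 0.22 ± 0.11 (adjusted p = 0.209).

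Aldh1b1 (chr4:45799022-45804604, plus strand), a mitochondrial enzyme that shares acetaldehyde and retinal as substrates, was the least abundant of the 10. It was at 51.4, 34.6, 70.6 and 46.7 CPM in Control, at 32.8, 27.9, 33.3 and 24.7 CPM in HFD, and at 31.8, 40.1, 32.5 and 44.4 CPM in HFD + fenofibrate. All HFD libraries were below all Control libraries, by a narrow margin between 33.3 and 34.6 CPM. The HFD level was 0.584 times that of Control (adjusted p = 0.0106), and the call held in all 20 alternatives, with log2 fold changes of −0.92 to −0.58. With fenofibrate the value was log2 0.33 ± 0.18 against HFD (adjusted p = 0.233). Against Control it was −0.45 ± 0.18 (adjusted p = 0.129), which passed only without Control replicate 2 (log2 −0.60, adjusted p = 0.0397).

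Aldh1l1 (chr6:90486427-90600203, plus strand) encodes cytosolic formyltetrahydrofolate dehydrogenase, which releases a one-carbon unit from folate as CO2. It was at 1018, 689, 942 and 813 CPM in Control, at 483, 549, 516 and 444 CPM in HFD, and at 686, 811, 714 and 709 CPM in HFD + fenofibrate. The HFD libraries were the 4 lowest of the 12, and the other groups overlapped. The HFD level was 0.575 times that of Control (adjusted p = 6.7e-04), in all 20 alternatives a fall that passed, and with fenofibrate the level was 1.47 times that of HFD (adjusted p = 0.0107). Without HFD + fenofibrate replicates 1 and 3 that last difference was larger but did not pass (log2 0.61, adjusted p = 0.0903). HFD + fenofibrate against Control gave −0.25 ± 0.12 (adjusted p = 0.229).

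Markers of periportal hepatocytes had summed levels in the same order over the groups as Aldh1l1. All 8 of that list were listed and none was at 0 throughout. Their sum ran from 11270 to 15770 CPM in Control, from 6313 to 8356 CPM in HFD and from 10540 to 13280 CPM in HFD + fenofibrate. The exact permutation p was 0.0286 for the diet and for fenofibrate against HFD (0.159 each after adjustment over the 39 tests), and 0.343 for HFD + fenofibrate against Control. Their part in the result on Aldh1l1 was not tested. Markers of pericentral hepatocytes, 10 of 10 listed, ran from 10040 to 12140 CPM in Control, from 9351 to 11090 CPM in HFD and from 13040 to 15300 CPM in HFD + fenofibrate. Most of that sum was Cyp2e1, with TMM-scaled means of 8682 CPM in Control, 8463 CPM in HFD and 10811 CPM in HFD + fenofibrate. By edgeR's test Cyp2e1 rose against HFD, but not without HFD + fenofibrate replicates 1 and 3 (adjusted p = 0.143). In every HFD + fenofibrate library the pericentral sum, in CPM of total counts, was above all libraries of both other groups (exact permutation p = 0.0286, adjusted 0.159). Aldh1a1 and Aldh1a7, in TMM-scaled CPM, were lower than in HFD. TMM factors, which divide the level, were 0.990 to 1.16 in HFD + fenofibrate and 0.884 to 0.997 in Control. Divided by them, HFD + fenofibrate replicate 3 (13558 CPM, factor 1.16) is below Control replicate 1 (12141 CPM, factor 0.997). The separation from Control thus holds for CPM of total counts only. In HFD + fenofibrate replicates 2 and 4 alone, the periportal sum was 10540 to 12340 CPM and the pericentral sum 13040 to 14400 CPM.

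Aldh3a2 (chr11:61223417-61267464, minus strand) encodes the fatty aldehyde dehydrogenase of the endoplasmic reticulum and peroxisome, which oxidises long-chain aldehydes from fatty alcohols, phytol and sphingolipids and is known as a PPARα target. It was at 266, 392, 232 and 304 CPM in Control, at 578, 548, 518 and 659 CPM in HFD, and at 503, 419, 458 and 559.6 CPM in HFD + fenofibrate. Both groups on the high-fat diet lay above all Control libraries and overlapped each other. The level in HFD was 1.93 times that of Control (adjusted p = 7.2e-04), and that in HFD + fenofibrate 1.63 times (adjusted p = 0.00794). Both calls held in all 20 alternatives, the second with adjusted p of up to 0.049. Fenofibrate against HFD gave −0.25 ± 0.15 (adjusted p = 0.264), and no alternative passed.

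The part of the Aldh3a2 window nearest its RefSeq start (GRCm38.p6, chr11:61267187-61267238, minus strand) is shown because it holds an E-box, CACGTG, in capitals. The E-box begins 30 bases before that start. On the minus strand the annotated gene begins at 61267464, so the whole window, this E-box included, lies inside the gene's annotated span. The remaining 198 bases, from the edge of the nearest annotated exon of the gene to the far end of the window, were left out. Whether all of them are exonic was not checked.
Aldh3a2: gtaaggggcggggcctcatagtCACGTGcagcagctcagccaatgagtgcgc
CACGTG, which reads the same on both strands, is in 6.02% of all windows and in no other window of these genes. TATAAA on the forward strand is in 7.59% of all windows. Among these genes it is in the first Adh5 window, 207 bases before the start, and in that of Aldh1a7, 244 bases before.

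Aldh8a1 (chr10:21377291-21396585, plus strand) encodes a dehydrogenase of aminomuconic semialdehyde in tryptophan breakdown and can also oxidise retinal. Its level ran from 339 to 428 CPM in Control, from 375 to 429 CPM in HFD and from 314 to 393 CPM in HFD + fenofibrate, and the 3 groups overlapped. It passed in no comparison: the values were log2 0.06 ± 0.10 for the diet (adjusted p = 0.743), −0.15 ± 0.10 for fenofibrate against HFD (adjusted p = 0.322) and −0.09 ± 0.10 against Control (adjusted p = 0.628).

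Per kilobase of the principal transcript, the levels spread over more than an order of magnitude. In Control, Aldh1a1 stood at 552 ± 108 CPM per kilobase (SD, n = 4), Adh1 at 547 ± 76.0 and Aldh2 at 492 ± 57.8, and the ranges of these neighbours overlapped. Adh5, Aldh1l1 and Aldh8a1 followed at 247 ± 38.4, 207 ± 34.7 and 166 ± 17.4, each overlapping the next. Aldh3a2, Aldh1a7 and Adh4 came after a gap, at 96.6 ± 22.2, 71.2 ± 13.0 and 58.8 ± 14.6, and Aldh1b1 was lowest at 22.1 ± 6.52. In HFD the order changed below the fourth place: Aldh3a2 followed Adh5 at 186 ± 19.7, and Adh4 at 162 ± 23.2 stood above Aldh1l1 at 119 ± 10.7. In HFD + fenofibrate Adh1 came first at 602 ± 32.9 and Aldh1a1 came after Aldh2 at 511 ± 110, with overlapping ranges. These orders depend on the length used. With all exons of a gene joined, Aldh2 came first in Control and Adh5 sixth, in place of the third and the fourth.

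**Figure D4:**
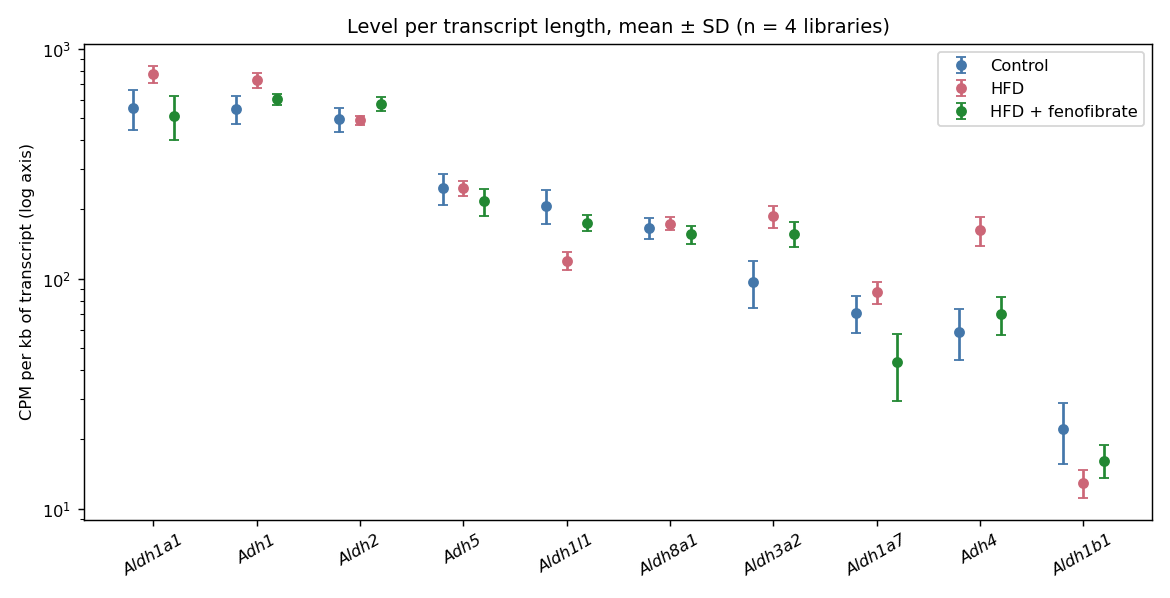
Mean level ± SD (n = 4) of the 10 genes per kilobase of the principal transcript, on a log axis, ordered by the level in Control. Adh4 moves from 58.8 CPM per kilobase in Control to 162 in HFD, and Aldh1l1 from 207 to 119.

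Summed over the 10 genes, the TMM-scaled level was 6062 ± 166 CPM in Control, 6845 ± 99.0 in HFD and 6297 ± 436 in HFD + fenofibrate (SD, n = 4). As a share of unscaled counts the 10 genes took 0.666% in HFD and 0.686% in HFD + fenofibrate, the opposite order. TMM factors were 0.896 to 1.03 in HFD and 0.990 to 1.16 in HFD + fenofibrate, so the order of these groups depends on the scaling. After Aldh2 and Aldh1a1, the largest parts of the Control sum were Aldh1l1 with 14.3% and Adh1 with 13.5%, so the sum says little of Adh4 or Aldh1b1. The genes also differed in how much they varied between libraries of a group. Aldh8a1 and Aldh2 had the smallest biological coefficients of variation, 0.116 each, at the 25.9th and 26.1st percentile of all tested genes, and Aldh1a7 the largest, 0.198, at the 75.2nd.

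Of 18 other alcohol and aldehyde dehydrogenase genes listed, 11 passed the count filter and 7 did not, none of which had over 10 counts in any library (Adh6a, Adh6b, Aldh1a2, Aldh1l2, Aldh3a1, Aldh3b2 and Aldh3b3). Of the 11, 1 fell on the diet, 1 rose with fenofibrate against HFD and 1 rose against Control. Over all tested genes 12.8%, 13.5% and 9.17% passed in these comparisons, the shares to set beside the counts of this and the later lists. Aldh7a1, which acts in lysine breakdown, fell on the diet from 532 ± 56.3 to 396 ± 22.4 CPM (log2 −0.43 ± 0.10, adjusted p = 0.00913). Aldh4a1, of proline breakdown, rose with fenofibrate from 125 ± 7.58 to 159 ± 7.15 CPM (log2 0.35 ± 0.11, adjusted p = 0.0378). Aldh5a1, which oxidises succinic semialdehyde, rose against Control from 34.1 ± 2.93 to 45.7 ± 4.76 CPM (log2 0.42 ± 0.10, adjusted p = 0.0127). With HFD + fenofibrate replicates 1 and 3 left out, none of the 11 passed edgeR's test against HFD or Control, where 2 and 1 had an unadjusted p under 0.05 (Aldh4a1 adjusted p = 0.294 against HFD, Aldh5a1 adjusted p = 0.200 against Control). Their medians in the 3 comparisons were −0.01, 0.19 and 0.13, beside −0.02, 0.01 and −0.01 over all tested genes.

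**Figure D5:**
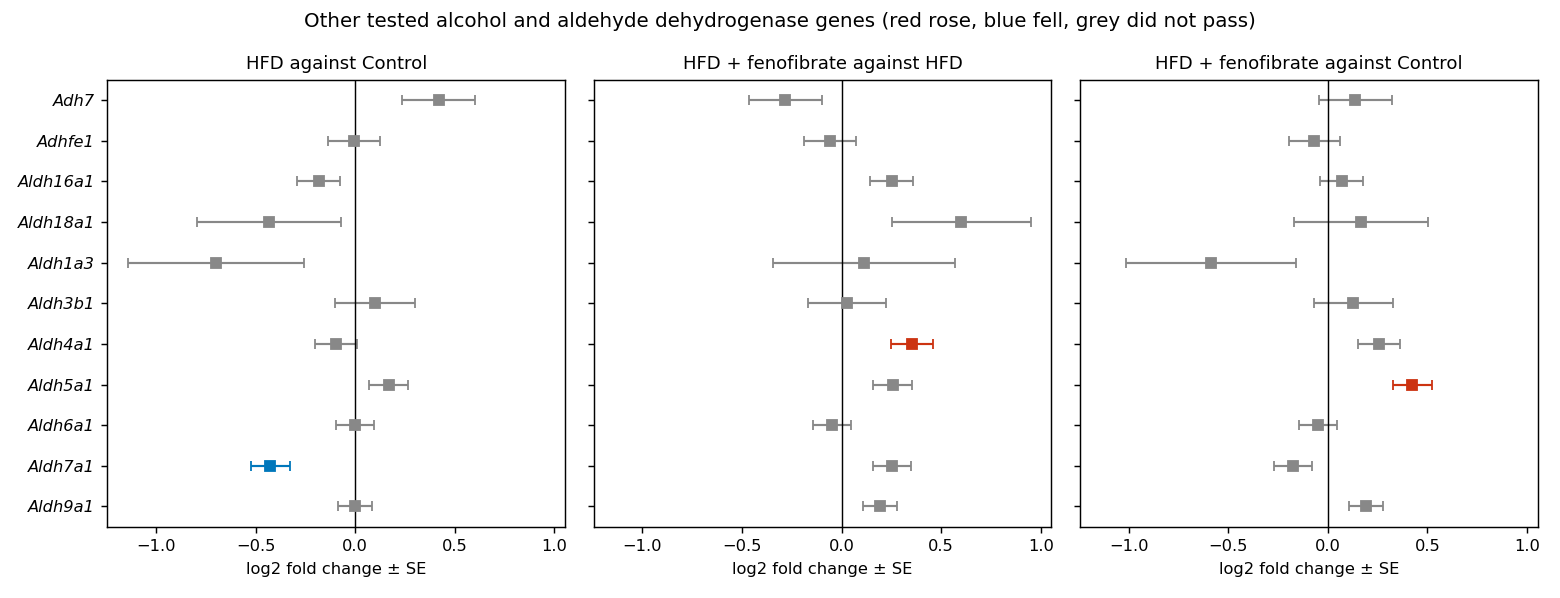
Log2 fold change ± SE of the 11 other tested alcohol and aldehyde dehydrogenase genes in the 3 comparisons; red rose, blue fell and grey did not pass an adjusted p of 0.05. A single gene passes in each comparison, Aldh7a1 at −0.43, Aldh4a1 at 0.35 and Aldh5a1 at 0.42.

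Genes that act before or after these enzymes moved in several directions. Of 4 tested genes for other ethanol oxidation and acetate use, 1 rose in each comparison. Acss2, which makes acetyl-CoA from acetate, rose on the diet by log2 0.72 ± 0.20 (adjusted p = 0.0282), and Cyp2e1, the ethanol-oxidising cytochrome, rose with fenofibrate against HFD by 0.35 ± 0.10 (adjusted p = 0.0336). Acss3 rose against Control by 0.59 ± 0.13 (adjusted p = 0.0127). Neither call with fenofibrate passed when HFD + fenofibrate replicates 1 and 3 were left out (Cyp2e1 adjusted p = 0.143, Acss3 adjusted p = 0.0954). No gene of the list then passed edgeR's test, and 1 against HFD and 3 against Control had an unadjusted p under 0.05. Of 25 tested genes of retinol storage, oxidation and retinoic acid handling, 4 rose and 2 fell on the diet, 1 rose and 4 fell with fenofibrate against HFD, and 2 rose and 5 fell against Control. The list's medians were −0.01, −0.09 and −0.24. Cyp26a1, the enzyme that degrades retinoic acid and is induced by it, fell on the diet from 6.81 ± 3.78 to 1.64 ± 1.05 CPM (log2 −2.05 ± 0.43, adjusted p = 0.00532). Rdh9, a retinol dehydrogenase of the short-chain family, rose on the diet (log2 0.68 ± 0.18, adjusted p = 0.0249) and again with fenofibrate against HFD (0.87 ± 0.17, adjusted p = 0.00588). Aox3, an aldehyde oxidase, rose on the diet (0.83 ± 0.14, adjusted p = 0.00135) and fell with fenofibrate (−0.83 ± 0.14, adjusted p = 0.00294). With HFD + fenofibrate replicates 1 and 3 left out, no gene of the list rose and 1 fell against HFD, and 1 rose and 1 fell against Control. Rdh9 and Aox3 then missed the threshold against HFD (adjusted p = 0.0585 and 0.0792).

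Around Aldh3a2, the list of fatty alcohol and fatty aldehyde metabolism and omega-oxidation had 15 tested genes, none of which rose on the diet and 2 of which fell. With fenofibrate against HFD none rose and 1 fell, and against Control 1 rose and 2 fell. The riser was Cyp4a31, a fatty acid omega-hydroxylase, at 25.8 ± 13.1 CPM in Control and 81.4 ± 41.8 CPM in HFD + fenofibrate (log2 1.66 ± 0.39, adjusted p = 0.0141). Its near copies in the same gene cluster may share reads with it. Cyp4a31 did not pass with HFD + fenofibrate replicates 1 and 3 left out (log2 1.11, adjusted p = 0.172). The list then had 1 gene that fell against Control and none that passed edgeR's test against HFD, where 3 had an unadjusted p under 0.05. The list's medians were −0.18, 0.05 and −0.19.

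Around Aldh1l1 and Adh5, 18 folate and formaldehyde genes were tested. On the diet 1 rose and 2 fell, with fenofibrate against HFD 3 rose and 3 fell, and against Control 2 rose and 1 fell, with medians of −0.15, 0.02 and −0.13. Gnmt, which methylates glycine, fell on the diet from 2731 ± 121 to 1601 ± 113 CPM (log2 −0.77 ± 0.14, adjusted p = 0.00177). Mthfd1, which makes and uses formyltetrahydrofolate, rose with fenofibrate by 0.47 ± 0.09 (adjusted p = 0.00467), the same direction as Aldh1l1. No folate gene passed edgeR's test against HFD with HFD + fenofibrate replicates 1 and 3 left out, 8 had an unadjusted p under 0.05 (Mthfd1 adjusted p = 0.113), and 1 rose against Control. Of the 11 kynurenine pathway genes around Aldh8a1, 3 rose and 2 fell on the diet, and 1 rose and 2 fell in each of the other comparisons, with medians of −0.02, 0.00 and −0.17. Acmsd, the enzyme that makes the substrate of Aldh8a1, fell on the diet from 54.4 ± 13.3 to 9.16 ± 1.69 CPM (log2 −2.57 ± 0.23, adjusted p = 6.8e-06). Without these HFD + fenofibrate libraries none of the 11 passed against HFD, where 3 had an unadjusted p under 0.05, and 1 rose and 2 fell against Control.

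Of 17 other aldehyde and ketone reductases tested, 5 rose and 3 fell on the diet, 3 rose and 6 fell with fenofibrate against HFD, and none rose and 1 fell against Control. The medians were 0.07, −0.27 and 0.09. Akr1c6, a hydroxysteroid dehydrogenase, had values in the same order as Adh4: 636 ± 159 CPM in Control, 1508 ± 160 in HFD and 729 ± 138 in HFD + fenofibrate (diet log2 1.25 ± 0.18, adjusted p = 4.7e-04; fenofibrate −1.05 ± 0.18, adjusted p = 0.00318). Cbr1, a carbonyl reductase, had the opposite order, at 149 ± 15.9, 67.2 ± 8.76 and 119 ± 8.72 CPM (diet −1.15 ± 0.11, adjusted p = 1.4e-05; fenofibrate 0.82 ± 0.11, adjusted p = 7.6e-04). When replicates 1 and 3 of the HFD + fenofibrate group were left out, 2 of 18 tested genes of the list rose and none fell against HFD. Against Control 1 rose, which was not the gene called with all libraries. Cbr1 kept its call (log2 0.89, adjusted p = 0.00936) and Akr1c6 did not (log2 −0.85, adjusted p = 0.0806).

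Nr1i3, which encodes the receptor CAR, rose on the diet by log2 0.36 ± 0.11 (adjusted p = 0.0446). Of 11 CAR target genes, none rose and 9 fell on the diet, 1 rose and 2 fell with fenofibrate against HFD, and none rose and 8 fell against Control, with medians of −0.92, 0.01 and −0.99. Cyp3a11 fell on the diet from 10745 ± 951 to 1757 ± 257 CPM (log2 −2.61 ± 0.18, adjusted p = 6.2e-07). Leaving out replicates 1 and 3 of the HFD + fenofibrate group, no CAR target rose and 2 fell against HFD, and 5 fell against Control. Of 11 clock genes, 6 rose and 3 fell on the diet, 2 rose and 1 fell with fenofibrate against HFD, and 7 rose and 3 fell against Control, with medians of 0.85, 0.40 and 1.25. Without those libraries no clock gene passed edgeR's test against HFD, where 4 had an unadjusted p under 0.05, and 6 rose and 2 fell against Control. The labels give no hour of tissue collection, and the part of the clock genes in the results on the 10 genes was not tested.

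Markers of the other cell types of liver are given by their ranges, since with 4 libraries a group the smallest possible p, 0.0286, became 0.159 after adjustment. The lowest and highest summed levels over the 12 libraries were 365 and 505 CPM for 9 stellate cell markers, 203 and 529 CPM for 8 Kupffer cell and macrophage markers, and 159 and 325 CPM for 7 sinusoidal endothelial markers. For 8 lymphocyte markers they were 11.98 and 23.6 CPM, and for 5 adipocyte markers 0 and 8.83 CPM. The 6 cholangiocyte markers summed to 41.7 to 78.0 CPM in Control, 32.8 to 75.1 CPM in HFD and 31.4 to 52.2 CPM in HFD + fenofibrate, with means of 59.7, 56.9 and 38.1 CPM. For HFD + fenofibrate the exact permutation p was 0.0857 against HFD and 0.0571 against Control. The 5 erythroid markers summed to 1185 CPM in HFD + fenofibrate replicate 1 and to at most 484 CPM elsewhere.

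The authors' deposited table for HFD against Control gives adjusted p-values of 0.00519 for Adh1 and 0.00721 for Aldh1a1, with log2 fold changes of 0.43 and 0.50. The authors' deposited table for fenofibrate gives adjusted p-values of 0.0116 for Adh1 and 0.0379 for Aldh2, with log2 fold changes of −0.28 and 0.23. In the authors' deposited tables only Adh4, in both comparisons, and Aldh1a7, with fenofibrate, are marked as significant among the 10. The authors' fold changes were 2.79 and 0.431 for Adh4 and 0.495 for Aldh1a7. Unmarked genes also had low adjusted p-values from the authors. On the diet they were 3.9e-08 for Aldh3a2 (fold change 1.95), 6.4e-07 for Aldh1l1 (0.581) and 0.0021 for Aldh1b1 (0.589). With fenofibrate they were 3.0e-06 for Aldh1l1 (1.46) and 0.000955 for Aldh1a1 (0.656). The rule for the mark is not stated.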

How the data were processed

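Liver RNA of 12 mice, 4 per group, was sequenced. The submitters' processing notes name HISAT2 2.0.5, StringTie 1.3.2d and HTSeq 0.6.0 and the builds mm8 and mm9; the coordinates in the files match GRCm38 (GENCODE M21) for 92.5% of 25113 shared gene identifiers, so GRCm38 was used. Per the file headers, the authors deposited 2 tables of raw counts per gene, one per comparison, with 8 libraries each, joined here on the gene identifier; the HFD counts were the same in both. A gene in only 1 table (1389 and 1118 genes) was given 0 counts in the libraries of the other. The deposited tables also hold the authors' base mean signal per gene, log2 fold change, fold change, p-value and adjusted p-value. How these were made is not stated, and only those named as the authors' were used.

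Libraries held 15797016 to 18514481 counts. The main test was edgeR's quasi-likelihood test (edgeR 4.0.16, R 4.3.3) with TMM scaling and filterByExpr, 1 coefficient per group over all 12 libraries, with Benjamini-Hochberg adjustment over 13477 genes and a threshold of 0.05. A standard error is the absolute log2 fold change divided by the square root of F. Levels are TMM-scaled CPM. Marker sums are CPM of total counts. On simulated data 66.7% of genes changed 2-fold were recovered for the diet and 79.1% for fenofibrate against HFD, and 7.64% and 4.14% of the calls were false, against a nominal 5%. Alternatives were other scalings and filters, DESeq2 1.42.0, the 8 libraries compared, a stricter threshold, the replicate number as a block, summed Aldh1a1 and Aldh1a7 counts and libraries left out. Single values were compared by exact permutation. Replicates differed beyond counting noise (chi-square per gene of 13.9 to 38.5 over 18 pairs), so each was counted.

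The genes, the 10 gene lists and the 12 marker lists were chosen with earlier results of these data known. The counts of 1 list, of receptors and transcription factors, are not reported here. From each list up to 3 passing genes per comparison with the largest change and a mean of at least 5 CPM could be named. Promoter windows are from RefSeq (GRCm38.p6), and Aldh2 had no entry.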

Additional observations from a re-analysis of the deposited data

Results flagged for a closer look

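In 30 groups of 4 libraries (10 genes in 3 groups), 2 held a library far from the others by Dixon's ratio, the gap to the nearest library divided by the group's range, past its 95% critical value. Chance alone flags about 1 in 20 such groups. Aldh2 in Control replicate 1 had a ratio of 0.8803, at 2237 CPM with the nearest Control library at 1817 CPM. Aldh8a1 in HFD replicate 1 had a ratio of 0.8593, at 429 CPM with the nearest HFD library at 382 CPM.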

How the results depend on the processing

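No alternative turned the direction of a called gene among the 10. Of 202 gene values under alternatives per comparison, 191, 194 and 192 kept their side of the threshold for the diet, fenofibrate against HFD and fenofibrate against Control. At an adjusted p under 0.01, 343 genes rose and 360 fell on the diet (main 826 and 895), 200 and 262 with fenofibrate (928 and 888), and 235 and 219 against Control (655 and 581). Of the 10 genes, 1 then fell on the diet, Aldh1l1, while Adh4 and Aldh3a2 still rose. With fenofibrate Adh4 and Aldh1a7 still fell and 0 rose. Against Control Aldh3a2 still rose and 0 fell. At that threshold 43.3% of the fenofibrate calls were higher, against 51.1% in the main analysis. Without HFD + fenofibrate replicates 1 and 3, 55 genes rose and 69 fell with fenofibrate and 215 and 158 against Control; of the 10 genes 0 rose and 1 fell with fenofibrate and 0 fell against Control. With only the 8 libraries compared, 0 of the 10 fell against Control. Aldh3a2 kept its rise against Control in both of these settings. With 1 library left out at a time, genes that rose and fell numbered 550 to 832 and 554 to 930 for the diet, 282 to 1210 and 328 to 1206 with fenofibrate, and 383 to 858 and 310 to 852 against Control. Of the 10 genes, 2 to 4 rose on the diet, 2 to 3 fell with fenofibrate, and 1 to 2 rose and 0 to 1 fell against Control. Counts moved over 1.5 times without Control replicate 1 (554 fell), HFD replicate 2 (580 fell) or HFD replicate 4 (550 rose, 562 fell) for the diet. With fenofibrate they did so without HFD replicate 1 (436 rose, 419 fell), 2 (571, 581) or 4 (444, 485), or HFD + fenofibrate replicate 1 (464, 434) or 3 (282, 328). Against Control they did so without Control replicate 2 (383, 385) or 4 (414 rose), or HFD + fenofibrate replicate 1 (336 fell), 3 (407, 310) or 4 (381 fell). A stricter threshold lowers counts by construction. Leaving out libraries lowered some counts and raised others, and the cause was not tested. Simulation recovered 35.8 to 47.6% of changes of 1.5-fold. It changed 200 genes drawn from all tested genes, where 1236 to 1816 passed in the data. The rate therefore cannot be carried over to the 10 genes.

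Same-numbered libraries did not deviate together (r between −0.18 and 0.14 over 12 pairs), so the numbers were not taken as pairs. With the replicate number as a block, 1511, 1674 and 1104 genes passed in the 3 comparisons, and of the 10 genes Aldh1a1 then passed for the diet (adjusted p = 0.0449).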
